A study of Mus musculus with 10 samples.

Results

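Transcripts of 9 genes used as markers of layer 5 neurons, Fezf2, Bcl11b, Etv1, Crym, Parm1, Qrfpr, Deptor, Vat1l and Bcl6, were followed in S1BF, the whisker barrel field of mouse primary somatosensory cortex. The genes were chosen by symbol. All 9 were found once each among 52636 genes, and all 9 were among the 18455 tested. The tissue came from C57BL/6 mice at postnatal day 17, and 1 RNA library was made per sample. The 4 Loxp samples carried the floxed Rxra allele Rxratm1Krc/J and no Cre. The 2 Hetero and 4 cKO samples carried Nex-cre with the same allele, as a heterozygous and as a full conditional knockout of Rxra. Rxra encodes the retinoid X receptor alpha, a nuclear receptor that acts in pairs with other nuclear receptors. Nex-cre is expressed from the Neurod6 locus in excitatory projection neurons, so interneurons, glia and vessels keep the gene. No group carried Cre without the floxed allele, so Cre and the deletion cannot be told apart in comparisons with Loxp. Sex and animals per sample were not given in the sources used here; if libraries do not come from separate animals, the p-values cover only the spread from library to library, which may be technical.

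Layer 5 holds the large pyramidal neurons through which the cortex reaches the brainstem and spinal cord (extratelencephalic cells), neurons that stay within the cerebrum (intratelencephalic cells), and near-projecting neurons with short axons. Fezf2 is the zinc finger factor that selects the extratelencephalic fate, and Bcl11b (Ctip2) acts downstream of it in the outgrowth of corticospinal axons. The same genes serve elsewhere: Bcl11b is abundant in striatal projection neurons, and Bcl6 is also found in other cortical layers. In bulk tissue, fewer cells of a type and less RNA per cell cannot be told apart.

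Total counts were 19332990 to 26086337 per library. Slc17a7, the vesicular glutamate transporter that marks cortical excitatory neurons, was present in every library, at a mean of 2318 CPM (a gene's share of all counted reads per library, scaled between libraries by TMM factors) in Loxp and 2468 in cKO. The targeted gene, Rxra, was at 21.6 to 31.8 CPM in Loxp, 23.2 and 26.4 in Hetero and 29.04 to 32.3 in cKO, and its whole-gene count does not check the deletion. Neurod6, the Cre locus, was at 66.7, 55.7, 61.9 and 34.9 CPM in Loxp, 34.4 and 34.0 in Hetero, and from 22.9 up to 38.1 across the cKO libraries. The library labelled Loxp 4 thus had Neurod6 at the level of the Cre carriers, and all comparisons with Loxp include it. Other libraries stood apart as well. Choroid plexus markers summed to 728 CPM in Hetero 2 and to 2.71 to 22.1 CPM elsewhere. Oligodendrocyte markers summed to 6024 CPM in cKO 2 and 6574 in Hetero 2, against 8554 to 10909 in the other 8 libraries. Striatal markers summed to 328 CPM in Loxp 2 and 326 in cKO 2, against 609 to 1313 elsewhere.

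The promoter stretches shown are those of the members with the lowest and the highest fold change in cKO against Loxp that are described below. Qrfpr encodes the receptor of the neuropeptide QRFP, and Vat1l encodes a relative of the synaptic vesicle protein VAT-1 that marks extratelencephalic neurons. The sequences are from RefSeq (GRCm38.p6) and run 5′ to 3′ on the strand of the gene, from base 250 to base 51 before the transcription start. Capitals mark each CG. The Qrfpr stretch is chr3:36222326-36222525 on the minus strand and that of Vat1l chr8:114205390-114205589 on the plus strand.
Qrfpr: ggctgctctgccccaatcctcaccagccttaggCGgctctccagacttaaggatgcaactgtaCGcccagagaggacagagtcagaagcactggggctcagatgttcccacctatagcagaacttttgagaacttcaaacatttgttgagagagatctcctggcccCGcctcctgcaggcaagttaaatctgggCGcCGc
Vat1l: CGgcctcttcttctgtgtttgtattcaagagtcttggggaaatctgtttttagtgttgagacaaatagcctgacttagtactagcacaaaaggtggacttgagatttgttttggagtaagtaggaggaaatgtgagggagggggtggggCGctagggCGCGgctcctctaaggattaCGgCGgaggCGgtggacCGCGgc
These 200 bases hold 5 CG in Qrfpr and 9 in Vat1l. RefSeq windows of 300 bases, 250 before to 50 after a start, were found for 7 of the 9 members (9 windows, with 2 for Etv1 and 2 for Bcl6); Crym and Deptor had no entry. CG counts per window ran from 3 (the second Etv1 window) and 8 (Qrfpr) to 20 (Fezf2) and 31 (the first Bcl6 window), with a median of 7 over 32851 windows of all genes. The nuclear receptor element AGGTCA, searched on both strands, was in 0 of the 9 windows and in 16.3% of all windows. Its direct repeats, which hold the element, were in 0 of the 9 as well; AGGTCANAGGTCA was in 0.0396% of all windows and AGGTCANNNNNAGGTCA in 0.00913%. The Fezf2 window, each Etv1 window and the second Bcl6 window lay inside the gene spans given below, so not every window was upstream of its gene. Elements outside these windows were not searched.

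**Figure D1:**
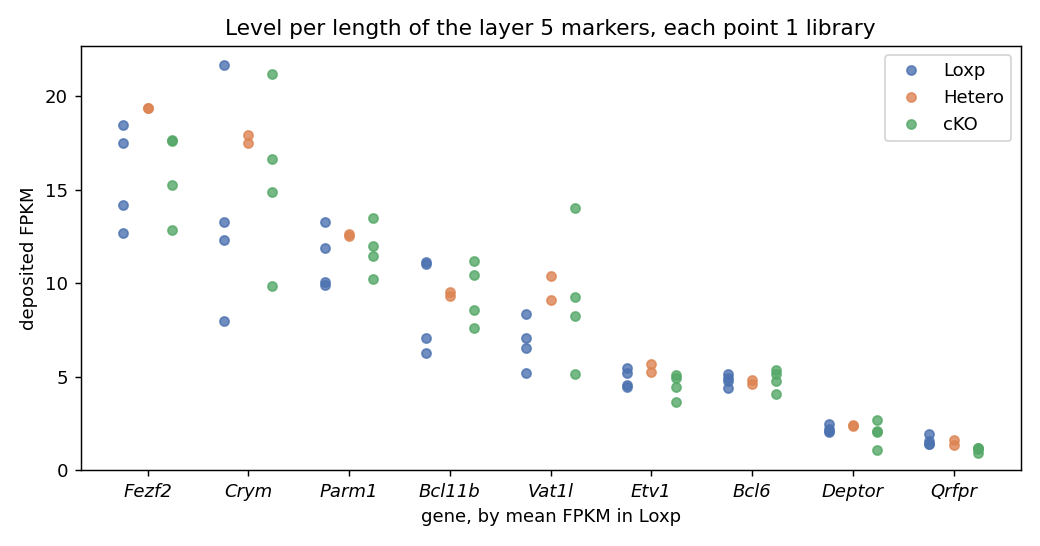
Deposited FPKM (vertical axis) of the 9 layer 5 markers (horizontal axis, ordered by the Loxp mean); each point is 1 library, coloured by group. Fezf2 and Crym stand highest, while Deptor and Qrfpr lie apart from the others at the low end in Loxp.

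Per transcript length, the markers covered about an order of magnitude in the control cortex. Mean FPKM (fragments per kilobase of transcript, scaled to depth) in Loxp was 15.7 ± 2.72 for Fezf2, 13.8 ± 5.72 for Crym, 11.3 ± 1.59 for Parm1 and 8.88 ± 2.57 for Bcl11b (SD, n = 4). It was 6.79 ± 1.30 for Vat1l, 4.92 ± 0.497 for Etv1, 4.81 ± 0.312 for Bcl6, 2.21 ± 0.202 for Deptor and 1.58 ± 0.243 for Qrfpr (SD, n = 4). Over all libraries this placed Fezf2 at the 82.6th percentile of the tested genes by mean FPKM and Qrfpr at the 33.2nd. From Fezf2 down to Bcl6, the ranges of neighbours in this order overlapped over the Loxp libraries. The ranges of Bcl6 and Deptor, and of Deptor and Qrfpr, did not overlap.

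The comparison of cKO with Loxp asked whether layer 5 transcripts differ when Rxra is deleted from excitatory neurons. By edgeR's quasi-likelihood test, 0 of the 9 markers passed an adjusted p of 0.05, and 0% of all 18455 tested genes did. Each marker had an edgeR adjusted p = 0.9998. Log2 fold changes were above 0 for 6 markers and below 0 for 3, with 50.1% of all tested genes above 0. Without Loxp 2, without the library labelled Loxp 4 or without cKO 3, 3 of the 9 were above 0. Their median was 0.01, beside 0.00033 over all tested genes. At an unadjusted p under 0.05 there was 1 marker, Qrfpr, where 2.53% of all tested genes reached this. The groups did not overlap for 1 of the 9 (again Qrfpr), against 1.54% of all tested genes.

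**Figure D2:**
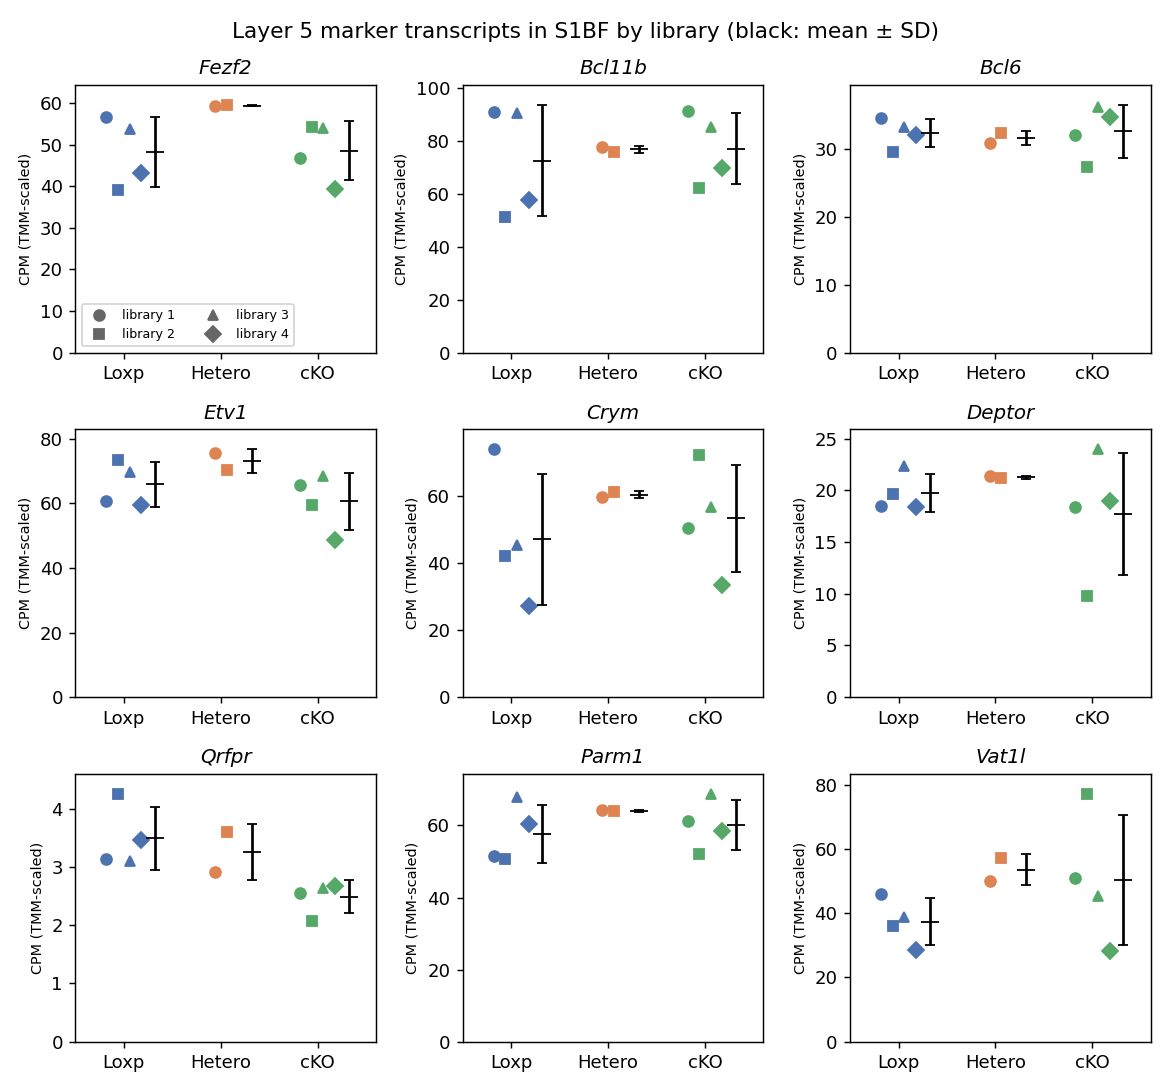
CPM (vertical axis, from 0) of each marker in Loxp, Hetero and cKO; symbols give the library number and black bars the mean ± SD. In Qrfpr the 4 cKO libraries sit between 2.07 and 2.68, below all Loxp libraries, while Crym, Bcl11b and Vat1l spread widely inside the groups.

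Among the transcription factors, Fezf2 (ENSMUSG00000021743, chromosome 14, 12342094 to 12348189, minus strand) was at 56.7, 39.04, 53.8 and 43.2 CPM in Loxp 1 to 4. The Hetero pair stood at 59.3 and 59.5 CPM and cKO 1 to 4 at 46.7, 54.3, 53.9 and 39.3. Both Hetero libraries were above every Loxp and cKO library, and Loxp and cKO overlapped over nearly their whole ranges. For Fezf2 the comparison of cKO with Loxp gave a log2 fold change of 0.01 (SE 0.129, 95% interval −0.27 to 0.29). Without Loxp 2 it was −0.08 and without cKO 4 it was 0.10.

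Bcl11b (ENSMUSG00000048251, chromosome 12, 107910403 to 108003602, minus strand) was at 91.0, 51.3, 90.5 and 57.6 CPM in Loxp 1 to 4. The Hetero pair stood at 77.8 and 76.0 CPM, and cKO 1 to 4 at 91.2, 62.3, 85.2 and 69.8. Loxp split into 2 high and 2 low libraries, and the cKO libraries lay inside that span apart from cKO 1, level with Loxp 1. The comparison of cKO with Loxp gave 0.09 (SE 0.178, 95% interval −0.30 to 0.47); it was 0.21 without Loxp 1 and −0.05 without Loxp 2.

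Etv1 (ER81, ENSMUSG00000004151, chromosome 12, 38779380 to 38870484, plus strand) is an ETS factor of intratelencephalic and other layer 5 cells. It was at 60.8, 73.5, 69.8 and 59.4 CPM in Loxp 1 to 4, against 75.7 and 70.4 in the Hetero pair and 65.6, 59.6, 68.5 and 48.8 in cKO 1 to 4. The lowest value was cKO 4, and the other 3 cKO libraries lay within the Loxp range. For Etv1 the comparison of cKO with Loxp gave −0.12 (SE 0.109, 95% interval −0.35 to 0.11), and −0.03 without cKO 4.

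Bcl6 (ENSMUSG00000022508, chromosome 16, 23965052 to 23988852, minus strand), a transcriptional repressor that promotes neuronal differentiation, was the steadiest member. It ranged from 29.7 to 34.6 CPM in Loxp, 31.0 to 32.4 in Hetero and 27.4 to 36.3 in cKO. The Loxp range lay inside that of cKO. In cKO against Loxp it was at 0.01 with the narrowest interval of the 9 (−0.19 to 0.22), and at 0.09 without cKO 2 and −0.04 without cKO 3. Of the corepressors that work with Bcl6 or carry its repression, 0 of 4 passed, 2 were higher and 2 lower, with a median of 0.03. Among them Bcor was at −0.12 (SE 0.134; −0.26 without cKO 3 and −0.04 without cKO 4) and Ncor1 at 0.06 (SE 0.0866; −0.02 without Loxp 1 and 0.10 without Loxp 3).

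Crym (ENSMUSG00000030905, chromosome 7, 120186380 to 120202111, minus strand) encodes mu-crystallin, which binds thyroid hormone inside the cell. It was at 74.0, 42.1, 45.5 and 27.1 CPM in Loxp 1 to 4. The Hetero pair stood at 59.7 and 61.3 CPM, and cKO 1 to 4 at 50.6, 72.4, 56.7 and 33.6. The highest and the lowest library were both Loxp, 2.73-fold apart, and cKO lay between them. For Crym the comparison of cKO with Loxp gave 0.18 (SE 0.258, 95% interval −0.38 to 0.73), from −0.01 without the library labelled Loxp 4 to 0.48 without Loxp 1. Among 7 genes of thyroid hormone receptors, transporters and deiodinases, 0 passed, 3 were higher and 4 lower, and their median was −0.02. Among them were the receptors Thrb at −0.15 (SE 0.107; −0.07 without cKO 4) and Thra at 0.16 (SE 0.121; 0.004 without cKO 2).

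Deptor (ENSMUSG00000022419, chromosome 15, 55112317 to 55259271, plus strand) encodes an inhibitory partner of the kinase mTOR. It was at 18.5, 19.6, 22.4 and 18.4 CPM in Loxp 1 to 4, against 21.4 and 21.2 in the Hetero pair and 18.4, 9.76, 23.98 and 18.9 in cKO 1 to 4. A single library, cKO 2, lay below all others, and the remaining cKO libraries covered the Loxp range. The same library had the lowest sum of oligodendrocyte markers. Hetero 2, with the next lowest sum (6574 CPM), had Deptor at 21.2 CPM, within the Loxp range. The part of oligodendrocytes in the level of Deptor was not tested. For Deptor the comparison of cKO with Loxp gave −0.15 (SE 0.196, 95% interval −0.57 to 0.27), and 0.05 without cKO 2. Of 10 genes of the mTOR complexes and their assembly, 0 passed, with 6 higher and 4 lower and a median of 0.01. Mapkap1, a subunit of complex mTORC2, was at −0.14 (SE 0.0684), with 44.1 to 47.0 CPM in cKO below 48.7 to 53.3 in Loxp. It was the 1 of these 10 genes without overlap, against 1.54% of all tested genes, and it did not pass. The assembly factor Tti1 stood at −0.12 (SE 0.117; −0.05 without Loxp 3) and Rptor, the scaffold of mTORC1, at 0.07 (SE 0.0795; 0.03 without Loxp 1 and 0.13 without the library labelled Loxp 4).

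Qrfpr (ENSMUSG00000058400, chromosome 3, 36179424 to 36222313, minus strand) was the member with the lowest fold change, and the most weakly counted. Loxp 1 to 4 had 65, 89, 79 and 87 raw counts, the Hetero pair 57 and 80, and cKO 1 to 4 had 65, 48, 68 and 64. Scaled to CPM, these were 3.13, 4.26, 3.11 and 3.47 for Loxp, 2.91 and 3.60 for the Hetero pair, and 2.56, 2.07, 2.65 and 2.68 for cKO. Each cKO library lay below each Loxp and each Hetero library, and Hetero overlapped Loxp. Its log2 fold change was −0.48 in cKO against Loxp (SE 0.179, 95% interval −0.87 to −0.10, edgeR adjusted p = 0.9998). Permuting the 4 and 4 libraries exactly (two-sided) gave p = 0.0286 for Qrfpr, the smallest that this design allows, and 0.343 to 0.914 for the other 8 members, with no adjustment for testing 9 genes. Since cKO and Loxp did not overlap in Qrfpr, its permutation p was bound to be this small and restates the lack of overlap. Leaving out 1 library moved the value from −0.54 to −0.38, and leaving out both Loxp 2 and cKO 2 gave −0.29 (SE 0.186). In the latter case, and without Loxp 2 alone, 0 of the 9 markers had an unadjusted p under 0.05.

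Parm1 (ENSMUSG00000034981, chromosome 5, 91517615 to 91626894, plus strand), a mucin-like membrane protein gene, was at 51.4, 50.8, 68.0 and 60.3 CPM in Loxp 1 to 4, against 64.3 and 63.9 in the Hetero pair and 61.1, 52.2, 68.8 and 58.4 in cKO 1 to 4. The 3 groups overlapped, and cKO against Loxp gave a log2 fold change of 0.06 (SE 0.108, 95% interval −0.17 to 0.29). It was 0.15 without Loxp 3 and −0.01 without cKO 3.

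Vat1l (ENSMUSG00000046844, chromosome 8, 114205612 to 114374071, plus strand) had the highest fold change of the 9. Loxp 1 to 4 stood at 45.9, 36.0, 38.9 and 28.5 CPM, the Hetero pair at 50.1 and 57.1, and cKO 1 to 4 at 50.9, 77.2, 45.2 and 28.3. Library cKO 2 was the highest of all 10, and cKO 4 the lowest, next to the library labelled Loxp 4. Its log2 fold change was 0.43 in cKO against Loxp (SE 0.230, 95% interval −0.06 to 0.93). This fold change was 0.16 without cKO 2 and 0.63 without cKO 4.

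**Figure D3:**
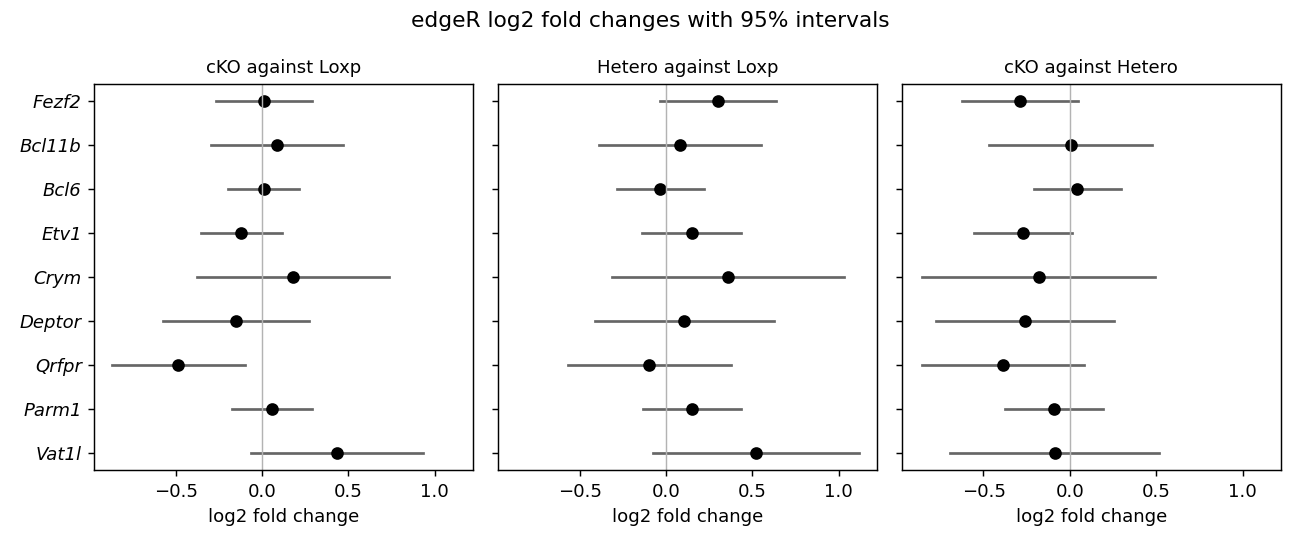
edgeR log2 fold change (horizontal axis) of each marker in the 3 comparisons; lines are 95% intervals. In cKO against Loxp the interval of Qrfpr (−0.87 to −0.10) leaves out 0 before adjustment, and those of the other 8 include it.

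In Hetero against Loxp, 0 of the 9 markers passed (edgeR adjusted p = 0.9998 for each), and 0% of all tested genes did. Log2 fold changes were above 0 for 7 of 9 markers, where 48.2% of all tested genes were above 0. The median was 0.15, beside −0.01 over all tested genes. At an unadjusted p under 0.05 there were 0 markers, against 2.54% of all tested genes. Fezf2 and Vat1l did not overlap between the groups, 2 of 9, where 11.4% of all tested genes did not overlap with only 2 Hetero libraries. The 2 Hetero libraries were above all 4 Loxp libraries in both genes, with log2 fold changes of 0.30 for Fezf2 (SE 0.156, 95% interval −0.03 to 0.64) and 0.52 for Vat1l (SE 0.277, 95% interval −0.08 to 1.12). Crym followed at 0.36 (SE 0.312; 0.66 without Loxp 1 and 0.18 without the library labelled Loxp 4). The remaining 6 members ran from −0.10 (Qrfpr; 0.05 without Hetero 1 and −0.26 without Hetero 2) to 0.15 (Parm1; 0.24 without Loxp 3).

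Nex-cre was present in both groups of the comparison of cKO with Hetero. Again 0 of 9 markers passed (edgeR adjusted p = 0.9999 for each), as did 0% of all tested genes. There were 7 markers below 0 and 2 above it, where 52.5% of all tested genes were above 0, with a median of −0.18 beside 0.0078 over all tested genes. At an unadjusted p under 0.05 there were 0 markers and 1.74% of all tested genes. The groups did not overlap for 3 of 9 markers, each lower in cKO, against 9.43% of all tested genes. They were Etv1 at −0.27 (SE 0.132; −0.18 without cKO 4), Fezf2 at −0.29 (SE 0.156) and Qrfpr at −0.39 (SE 0.219; −0.22 without Hetero 2). Both comparisons with Hetero use the same 2 Hetero libraries, and both with Loxp the same 4 Loxp libraries, so their directions are not independent.

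**Figure D4:**
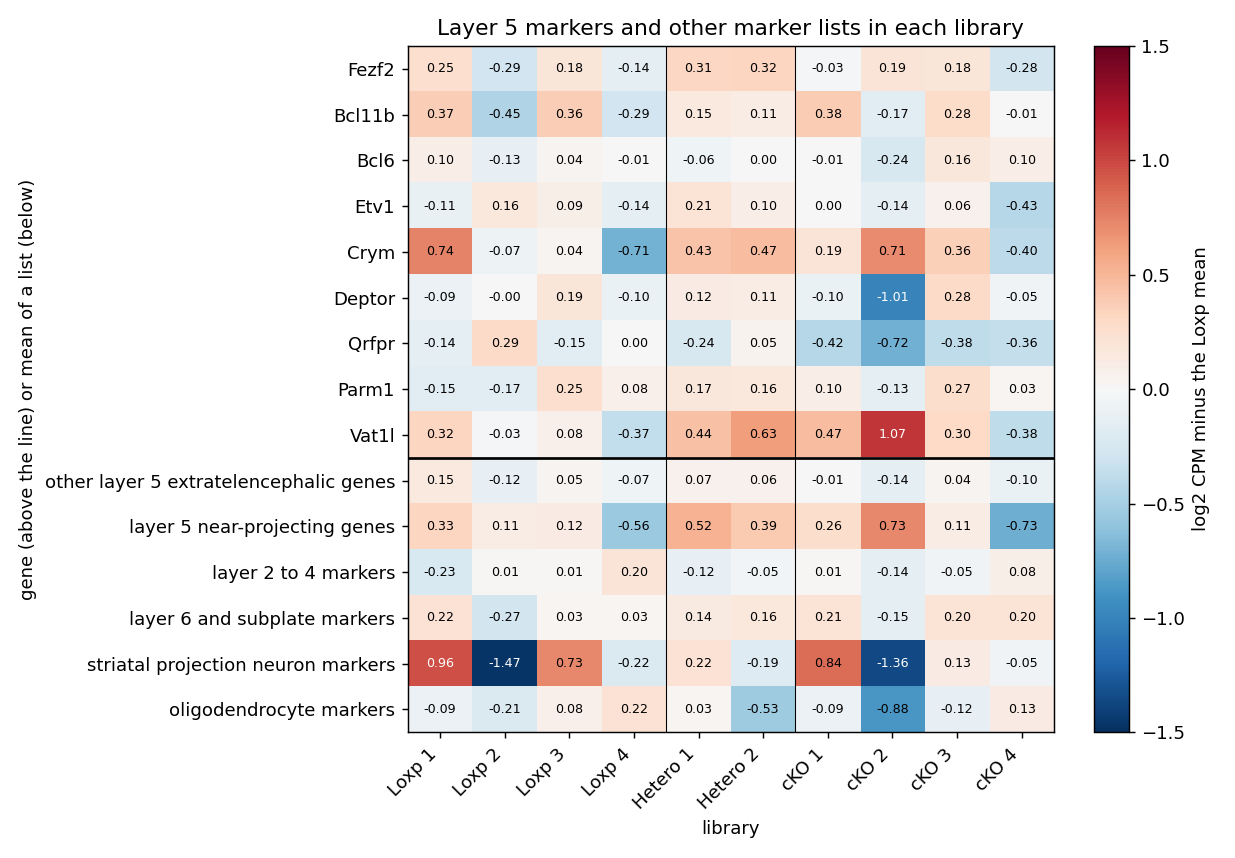
Log2 CPM minus the Loxp mean in each of the 10 libraries (columns), for the 9 markers (rows above the line) and the mean of 6 marker lists (below). Red is higher and blue lower; the library labelled Loxp 4 and cKO 4 are low in Crym, Vat1l and the near-projecting list, and Loxp 2 and cKO 2 are low in the striatal list.

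The markers differed in how far they varied and in which libraries held their extremes, though some libraries were low or high in most of them. Within groups, the SD of log2 CPM was 0.49 for Crym, 0.43 for Vat1l, 0.37 for Deptor and 0.33 for Bcl11b. These are at or above the 70.3rd percentile of all tested genes, whose median was 0.20. It was 0.22 for Fezf2, 0.19 for Qrfpr, 0.17 for Etv1 and Parm1, and 0.13 for Bcl6, the 27.05th percentile. Library cKO 2 alone held the highest Vat1l and the lowest Deptor, Qrfpr and Bcl6. Loxp 2 held the highest Qrfpr and the lowest Fezf2, Bcl11b and Parm1. In the library labelled Loxp 4 and in cKO 4 only 1 of 9 markers was above its median over the 10 libraries, against 8 in Hetero 2 and 7 in Hetero 1 and cKO 3. Layer 2 to 4 markers summed highest in the library labelled Loxp 4 and in cKO 4, at 1199 and 1141 CPM against 906 to 1096 elsewhere. The part of layer content in the levels of the 9 markers was not tested.

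Bcl11b was highest, and within Loxp and cKO lowest, in the libraries with the most and the fewest striatal transcripts. Striatal markers (12 genes, among them Drd1, Drd2, Adora2a and Ppp1r1b, several of which cortex also expresses) summed to 1313, 328, 1132 and 711 CPM in Loxp 1 to 4, to 796 and 609 in the Hetero pair, and to 1207, 326, 796 and 808 in cKO 1 to 4. The 3 libraries with the highest sums, Loxp 1, cKO 1 and Loxp 3, were also the 3 highest in Bcl11b. Loxp 2 and cKO 2 had the lowest sums and were the lowest in Bcl11b of their groups. Between these ends the order differed, with Bcl11b lower in the library labelled Loxp 4 than in Hetero 2 although its striatal sum was higher. Loxp 2 and cKO 2 were also lowest in summed interneuron markers, at 775 and 767 CPM against 954 to 1158 elsewhere. Their mean log2 level of layer 6 and subplate markers, against the Loxp mean, was −0.27 and −0.15, and 0.03 to 0.22 elsewhere. The summed CPM of these layer 6 and subplate markers was nonetheless highest in cKO 2, at 276. Adora2a, which marks indirect-pathway striatal neurons, ran between 6.41 and 48.8 CPM in Loxp and between 5.18 and 44.7 in cKO, and 0 of the 12 genes had a count of 0 in any library. Of the 12, 11 were lower in cKO than in Loxp and 0 passed, with a median of −0.17. Among them were Tac1 at −0.23 (SE 0.315; 0.09 without Loxp 1) and Adora2a at −0.29 (SE 0.575; 0.08 without Loxp 1). The part of striatal, interneuron or layer 6 RNA in the level of Bcl11b was not tested. The genes nearest to Bcl11b were sought among 2053 tested genes varying at least as much, with mean log2 CPM over 0. Gene models with only a clone name or number and pseudogenes were left out. In centred log2 CPM over the 10 libraries the nearest were Adcy5, Nxph3 and Pde1b, with root mean square differences of 0.12, 0.15 and 0.17. Picked from so many, the nearest genes lie close in any case. Adcy5 ran from 133 CPM in Loxp 2 to 278 in cKO 1. By the same measure, among 3335 candidates, Gmds (0.11), Doc2a (0.12) and Cd83 (0.12) were nearest to Fezf2.

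**Figure D5:**
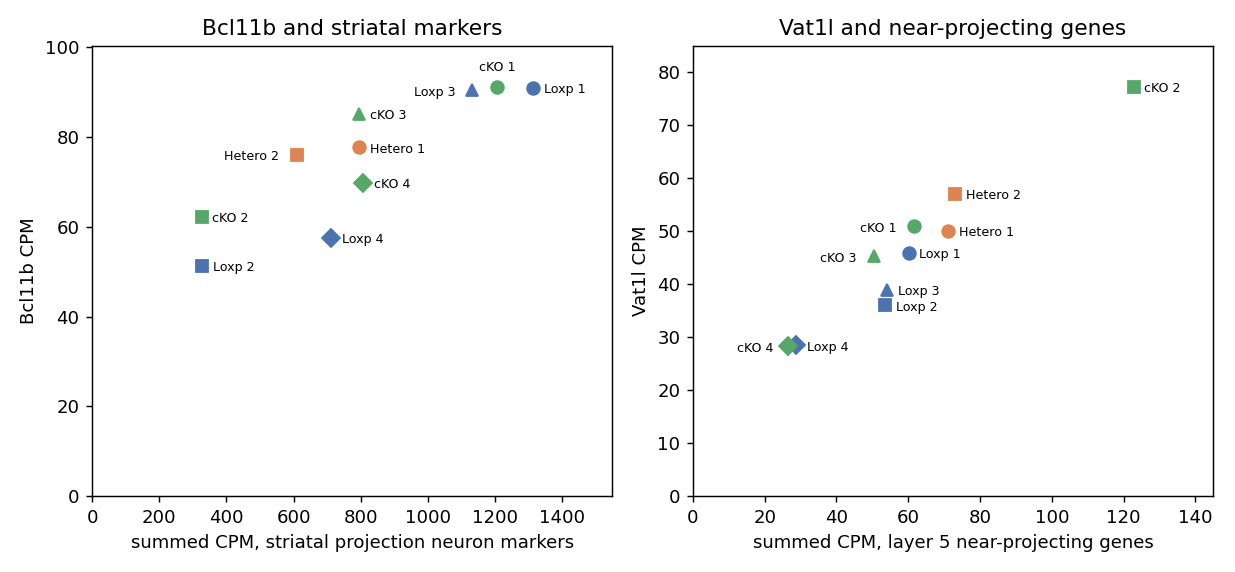
Left, Bcl11b CPM against the summed CPM of 12 striatal markers; right, Vat1l CPM against the summed CPM of 5 near-projecting genes; each point is 1 labelled library, coloured by group. Loxp 2 and cKO 2 lie at the low end on the left, and cKO 2 (77.2 CPM of Vat1l) stands alone at the top right on the right.

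The highest and lowest libraries of Vat1l, and in part those of Crym, were also the extremes of the summed CPM of near-projecting neuron genes. Near-projecting genes (Tshz2, Slc17a8, Trhr, Lypd1 and Htr2c) summed to 60.1, 53.6, 54.2 and 28.7 CPM in Loxp 1 to 4, to 71.1 and 73.0 in the Hetero pair, and to 61.6, 123, 50.5 and 26.4 in cKO 1 to 4. The lowest sums were in cKO 4 and the library labelled Loxp 4, which were also the lowest of their groups in Vat1l and Crym. Library cKO 2 was the highest in the sum and in Vat1l, and the highest cKO library in Crym. Lypd1 contributed most, with 88.5 CPM in cKO 2 and 13.2 to 40.8 in the other 9 libraries. The list did not move as 1: Slc17a8, the vesicular glutamate transporter VGLUT3, was at 4.62 CPM in cKO 2, its lowest value, and at 5.94 to 11.3 elsewhere. Tshz2 was not raised in cKO 2 either, at 3.58 CPM against 2.13 to 9.23 elsewhere. Htr2c (23.5 CPM) and Trhr (2.63 CPM) were highest in cKO 2. In cKO against Loxp 0 of 5 passed, 3 were higher and 2 lower, with a median of 0.47. In Hetero against Loxp 5 of 5 were higher, 0 passed and the median was 0.29. The part of near-projecting cells in the level of Vat1l was not tested. Lypd1 was at 0.70 (SE 0.432; −0.03 without cKO 2), Trhr, the receptor of thyrotropin-releasing hormone, at 0.63 (SE 0.413; 0.06 without cKO 2) and Slc17a8 at −0.37 (SE 0.189; −0.24 without cKO 2).

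A further 18 genes of extratelencephalic cells were measured. In cKO against Loxp 0 of 18 passed, 8 were higher and 10 lower, and their median was −0.02. In Hetero against Loxp 10 were higher and 8 lower, with a median of 0.06, and 0 passed. Pou3f1, a POU factor of these cells, was at 72.1, 58.6, 75.3 and 72.9 CPM in cKO and 91.2, 76.8, 79.7 and 78.0 in Loxp. Each cKO library of Pou3f1 lay below each Loxp library, at a log2 fold change of −0.22 (SE 0.0919; −0.15 without cKO 2; edgeR adjusted p = 0.9998). It was the 1 of the 18 without overlap, against 1.54% of all tested genes. Nefh, the heavy neurofilament, was at −0.33 (SE 0.162) and at −0.16 without cKO 2, which held 43.6 CPM against 71.8 to 94.5 in the other cKO and the Loxp libraries. The third by p, Fam84b, stood at −0.29 (SE 0.143).

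Regulators that divide projection fates were also measured. Of 12 genes, among them Tbr1, which restrains Fezf2 in layer 6, 0 passed in cKO against Loxp, 9 were higher and 3 lower, with a median of 0.07. Bhlhe22 stood at 76.2 to 142 CPM in cKO and 67.5 to 76.6 in Loxp, at a log2 fold change of 0.42 (SE 0.169), and 0.16 without cKO 2. Ski, a transcriptional corepressor, was at 0.15 (SE 0.104; 0.07 without cKO 2), and Sox11 at 0.23 (SE 0.165; 0.13 without the library labelled Loxp 4 and 0.37 without cKO 4).

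Without both Loxp 2 and cKO 2, 0 of 9 markers passed in cKO against Loxp and the median was 0.05. Vat1l was then at 0.15 (SE 0.194), Bcl11b at 0.05 (SE 0.147), Crym at −0.04 (SE 0.271), Fezf2 at −0.13 (SE 0.118) and Deptor at 0.05 (SE 0.120).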

How the data were processed

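RNA was sequenced from S1BF in 4 Loxp, 2 Hetero and 4 cKO samples, grouped by their titles. The authors deposited read counts per gene and FPKM values, per the file headers. The submitters' processing notes name featureCounts 1.5.0-p3 and the build mm10. Aligner, annotation and strand setting were not given in the sources used here. FPKM were used only for levels per length.

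Counts were tested with edgeR 4.0.16 (R 4.3.3; TMM, filterByExpr, quasi-likelihood F-test) over all 10 libraries with a mean per group, and p-values were adjusted by Benjamini-Hochberg over all 18455 tested genes. The common biological coefficient of variation was 14.9%. CPM use TMM-scaled totals, and log2 CPM a prior count of 2. Intervals are 95% on the moderated degrees of freedom. The procedure was run on simulated counts with the same spread for every gene and no difference in tissue content between libraries. That run does not show how it performs on the real libraries. Gene positions are from GENCODE M21 (GRCm38, the same assembly as mm10). Antisense overlap with a member's exons occurred for Deptor (303 bases with Gm9920) and Bcl6 (21 bases with Gm37419), whose partners had 34 and 22 counts in all.

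Scaling was varied (DESeq2 size factors or library size alone), as were the filter (none, or 1 CPM in at least 4 libraries), the samples (2 groups at a time, or 1 library left out), the design (blocks by replicate number) and the tool (DESeq2 1.42.0, or limma-voom from limma 3.58.1); leaving out both Loxp 2 and cKO 2 was chosen after seeing the data. All 9 members are named; from other lists the 3 with the smallest p in cKO against Loxp, and the 3 genes most like Fezf2 and Bcl11b. Some genes that this rule names are not reported here. Any further gene was chosen with its values in view. The members and lists were chosen with earlier results of these data known. No 2 libraries were duplicates, with a chi-square per gene of at least 5.10 in all 45 pairs.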

Additional observations from a re-analysis of the deposited data

How the results depend on the processing

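Under every alternative run, 0 of the 9 markers passed in each of the 3 comparisons. Leaving out 1 library gave medians of −0.05 to 0.08 in cKO against Loxp, 0.10 to 0.21 in Hetero against Loxp and −0.26 to −0.08 in cKO against Hetero. Over all genes, edgeR called 0 in each comparison, but 32, 68 and 39 with no low-count filter, in the order given, and DESeq2 called 2, 17 and 3. The replicate block called 1, 1 and 0 genes. Single libraries raised the calls to 1 without cKO 2 in cKO against Loxp, and without Hetero 1 to 15 and 14 in the comparisons with Hetero; that fit leaves Hetero 2 as the only Hetero library, assumed to vary like the other groups. Markers above 0 numbered 3 to 6, 6 to 9 and 0 to 3 when 1 library was left out, and those at an unadjusted p under 0.05 numbered 0 to 2, 0 to 2 and 0 to 1, against 2, 3 and 2 with no filter and 2, 1 and 1 with the replicate block. The labels do not say that replicate numbers mark a shared litter, batch or animal, and the data leave this unsettled. Deviations of cKO and Loxp libraries of the same number correlated at 0.0952, 0.199, 0.0419 and 0.322, and each of the 4 cKO libraries correlated best with its own number; for Hetero 1 and 2 the values were −0.0257 and −0.00815, and neither did. With the replicate block Qrfpr was at −0.47 (SE 0.19) and Vat1l at 0.36 (SE 0.145) in cKO against Loxp, Vat1l at 0.24, Crym at 0.12, Deptor at 0.29 and Parm1 at 0.29 (SE 0.103) in Hetero against Loxp, and Deptor at −0.48 (SE 0.215) and Parm1 at −0.22 in cKO against Hetero.

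Some fold changes changed sign, also ones as large as 0.70 (Lypd1). Leaving out 1 library, those that did ranged in cKO against Loxp from −0.077 to 0.10 (Fezf2), −0.047 to 0.21 (Bcl11b), −0.0077 to 0.48 (Crym), −0.0053 to 0.15 (Parm1), −0.32 to 0.053 (Deptor), −0.039 to 0.089 (Bcl6), −0.028 to 0.997 (Lypd1), −0.41 to 0.092 (Tac1), −0.80 to 0.083 (Adora2a) and −0.020 to 0.10 (Ncor1). In Hetero against Loxp they ranged from −0.051 to 0.21 (Bcl11b), −0.26 to 0.046 (Qrfpr) and −0.073 to 0.00043 (Bcl6), and in cKO against Hetero from −0.086 to 0.092 (Bcl11b), −0.37 to 0.11 (Vat1l) and −0.011 to 0.12 (Bcl6). With the replicate block Bcl6 stood at 0.044 in Hetero against Loxp, and Bcl11b at −0.052, Crym at 0.084, Vat1l at 0.13 and Bcl6 at −0.038 in cKO against Hetero, where Bcl11b was at −0.00818 by library size alone and −0.012 by limma-voom. Without both Loxp 2 and cKO 2, Fezf2 was at −0.13, Crym at −0.042, Deptor at 0.053, Ski at −0.012 and Thra at −0.000475. The ranks by level per length were the same with CPM per kilobase of annotated exons. These lengths nearly equal those that the FPKM imply (13296 and 13369 bases for Etv1), so the order could hardly change. Ranks by the implied length follow from the FPKM themselves and are no separate check. The 48 to 89 counts of Qrfpr per library limit its precision; the other members had at least 226.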

Other observations

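Markers of the layers above and below were also without a call. In cKO against Loxp 0 of 12 layer 2 to 4 markers passed, 4 were higher and 8 lower (median −0.02), and 0 of 9 layer 6 and subplate markers passed, 7 higher and 2 lower (median 0.12). Otof, an upper layer gene, was at 44.5 CPM in cKO 2 and 9.12 to 17.5 in the other libraries, so that its log2 fold change of 0.80 (SE 0.365) was 0.12 without cKO 2; edgeR with no low-count filter gave it an adjusted p = 0.0228, against an adjusted p of 0.9998 with the filter. Ntsr1, the neurotensin receptor of layer 6 corticothalamic cells, was at 14.9 CPM in cKO 2 and 6.42 to 10.01 elsewhere (0.51, SE 0.185; 0.29 without cKO 2). Whrn stood at 0.36 (SE 0.182; 0.09 without cKO 2), Lamp5 at −0.29 (SE 0.147; −0.12 without cKO 2), Col5a1 at 0.35 (SE 0.189; 0.12 without cKO 2) and Moxd1 at 0.22 (SE 0.142).

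Immediate early genes, which neuronal activity induces, were lower in cKO than in Loxp for 12 of 12, with 0 past the adjusted threshold, 7 at an unadjusted p under 0.05 and a median of −0.49. Of all tested genes 50.1% were above 0 and 2.53% had an unadjusted p under 0.05. Genes induced together can move together, so 12 of 12 are not independent results. Their summed CPM was 2182, 1629, 2315 and 3089 in Loxp 1 to 4, and 1397, 1352, 1650 and 1868 in cKO 1 to 4. The library labelled Loxp 4 was the highest, and Loxp 2 lay within the cKO range. Egr2 was at 12.2 to 20.1 CPM in cKO and 18.9 to 40.8 in Loxp (log2 fold change −1.003, SE 0.212, edgeR adjusted p = 0.9998). In Hetero against Loxp 12 of 12 were lower as well, with a median of −0.91, and these comparisons share the Loxp libraries. Oligodendrocyte markers were lower for 7 of 7 in cKO against Loxp (median −0.19) and microglial markers higher for 5 of 5 (median 0.06), with 0 passing in either list. Library cKO 2 stood apart in both. Against the Loxp mean, the mean log2 level of oligodendrocyte markers was −0.88 in cKO 2 and −0.09, −0.12 and 0.13 in cKO 1, 3 and 4, and that of microglial markers was 0.35 in cKO 2 and −0.02, −0.02 and −0.04 in cKO 1, 3 and 4.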
